A study of Mus musculus with 14 samples.

Results

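Ductal cells that had arisen from marked hepatocytes were compared with hepatocytes, both sorted from chronically injured mouse livers. The comparison uses 9 of the series' 14 RNA libraries, chosen by the cell population that the labels and column names give: 5 of hepatocyte-derived ductal cells (numbered 219, 220, 225, 248 and 611) and 4 of hepatocytes (118, 225, 248 and 611). The other 5 libraries are of cholangiocyte-derived ductal cells. They enter the estimate of the spread between libraries, the choice and filter of symbols, the rescaling and the quantile normalization. Otherwise they are given here for single genes, for counts among switched-on symbols and for correlations between libraries. The mice were adult C57BL/6 chimeras with a red fluorescent marker, mTomato, in their mature hepatocytes. The labels give the marked ductal cells as donor cells of the type oval cell, and the cholangiocyte-derived ones as host cells. All groups, hepatocytes included, came from mice given DDC at 0.1% (a toxicant, diethoxycarbonyl-dihydrocollidine, that blocks haem synthesis and causes cholestatic injury with a ductular reaction) for 5 to 8 weeks, and no liver without DDC was analysed here. Ductal cells were gated as mTomato-positive and MIC1-1C3-positive (a ductal surface antigen) with low side scatter, and as lacking CD11b, CD26, CD31 and CD45. The sources used here state neither the gate for hepatocytes, nor the age of the mice, nor the number of animals behind a library. The labels do not say that libraries come from separate mice, so the p-values reflect no more than how far these samples spread, part of which may be technical.

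Hepatocytes carry out the synthetic and detoxifying work of the liver: they secrete most plasma proteins, make bile acids, and turn over sugars, amino acids, lipids and xenobiotics. Cholangiocytes line the bile ducts as a polarized epithelium that alters bile by moving water and ions, rests on a basement membrane and carries a primary cilium. After long injury, cells with ductal traits spread from the portal tracts, and marked hepatocytes can contribute to them, a change of identity called ductal metaplasia. The comparison asks which transcripts separate such cells from the hepatocytes of equally treated livers. In bulk RNA, fewer cells of a type and less RNA per cell cannot be told apart.

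Values are RPKM, reads of a transcript scaled to its length in kilobases and to the depth of the library. Estimated depth was 16750000 to 25850000 reads per library over the series, so a value near 1 RPKM rests on few reads. Each ductal library held 11757 to 11936 symbols at 1 RPKM or more, against 10326 to 10996 in hepatocytes, and 7751 to 7932 against 5560 to 5852 at 10 RPKM or more. Hepatocyte RNA was the more concentrated, as the 100 most abundant symbols held 42.3 to 45.9% of the summed RPKM against 27.4 to 29.0% in ductal cells. The labels were compared with lists of cell type markers. These lists were chosen with earlier results of these data known, so they are no independent check of the labels. As background, 66.2% of all tested symbols were called higher in ductal cells and 14.8% lower (37.5% and 36.3% rescaled). Of 21 biliary markers 18 were called higher in ductal cells and none lower (17 and 2 rescaled), and their share of the summed RPKM was 4.3 to 4.78% against 0.398 to 0.598%. Of 21 hepatocyte markers 20 were called lower and none higher (21 rescaled, 15 under quantile normalization), with a share of 2.83 to 4.17% against 11.5 to 18%. Hepatocyte library 118 and ductal library 219 stood apart. In hepatocyte library 118, 359 symbols were more than 2 times as high as in every other hepatocyte library, and 298 were under 50% of every other, with markers of macrophages, endothelium and stellate cells among the high ones. In hepatocyte-derived ductal library 219, 61 symbols were under 50% of every other ductal library and 0 were over 2 times as high, the low ones including hepatocyte and blood cell transcripts. Results that rest on either library are given with and without it.

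Differences were widespread and went mostly upward on the deposited scale. Of 12638 tested symbols, limma's moderated test on log2(RPKM + 1) called 8363 (66.2%) higher and 1873 (14.8%) lower in ductal cells than in hepatocytes, 81.0% in all, at a Benjamini-Hochberg adjusted p under 0.05. Without hepatocyte library 118 the calls numbered 8688 higher and 1915 lower. At least 4-fold changes numbered 1095 higher and 429 lower, and at least 32-fold changes 37 and 39. All 5 ductal values lay above all 4 hepatocyte values for 59.9% of symbols and below them for 12.4%. The median log2 difference of all tested symbols was 0.67, and rescaling the libraries by median ratios brought it to 0.02. The rescaled calls numbered 4735 higher (37.5%) and 4590 lower (36.3%), so that higher calls made up 50.8% of calls in place of 81.7%. All 4735 were also higher as deposited, 1022 symbols turned from higher to lower, 0 turned from lower to higher, and all 1873 lower calls stayed lower. A log2 difference below is on the deposited log2(RPKM + 1) scale unless called rescaled, and one between 0 and 0.67 is smaller than that of the median gene. A mean is given ± SD over 5 ductal or 4 hepatocyte libraries. For named genes whose log2 difference is given alone, standard errors lay between 0.051 and 1.1, with a median of 0.17.

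**Figure D1:**
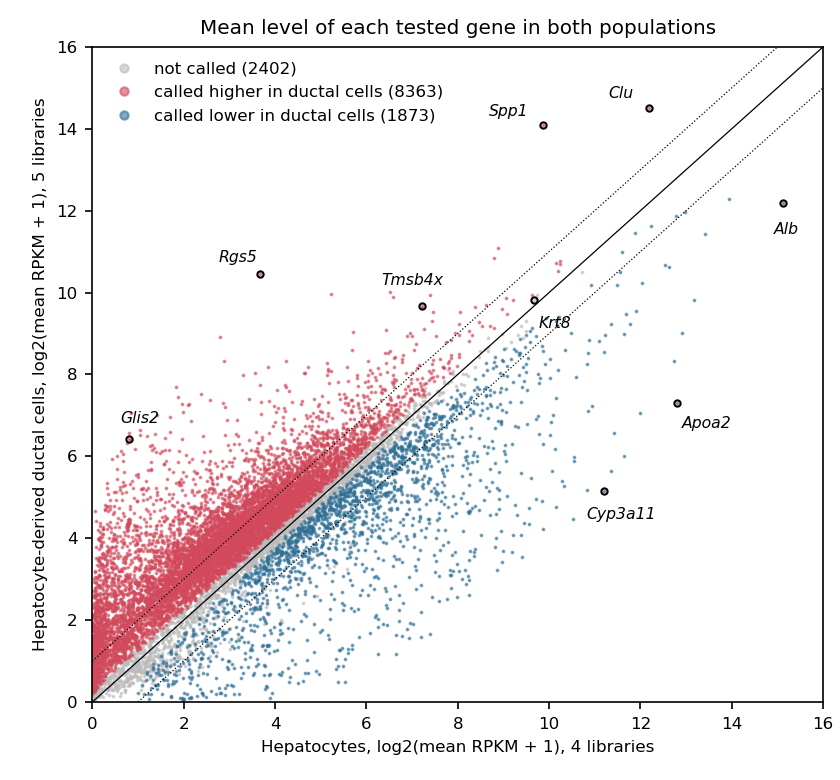
Each point is 1 of 12638 tested symbols, placed by log2(mean RPKM + 1) over 4 hepatocyte libraries on the horizontal axis and over 5 hepatocyte-derived ductal libraries on the vertical axis, and coloured by the limma call (8363 higher, 1873 lower and 2402 not called). The solid line marks equal levels and the dotted lines a 2-fold difference. Most points lie above the solid line, while most of the transcripts abundant in hepatocytes, such as Alb, Apoa2 and Cyp3a11, lie below it, and Clu and Spp1 are the highest points.

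The direction of the calls depended on how abundant a transcript was. Of 4808 symbols with a mean of 5 to 20 RPKM, 76.1% were called higher and 8.88% lower (41.7% and 30.3% rescaled). Of 3665 symbols at 20 to 100 RPKM, 57.6% were higher and 21.8% lower as deposited, but 23.6% higher and 55.9% lower rescaled. Of 705 symbols at 100 to 500 RPKM, 31.8% were higher and 53.2% lower (14.8% and 74.3%). Above 500 RPKM, 19.3% of 109 symbols were higher and 71.6% lower (9.17% and 84.4%). On both scales higher calls outnumbered lower ones under 20 RPKM and lower calls outnumbered higher ones above 100 RPKM, and between them the direction turned with the scale.

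**Figure D2:**
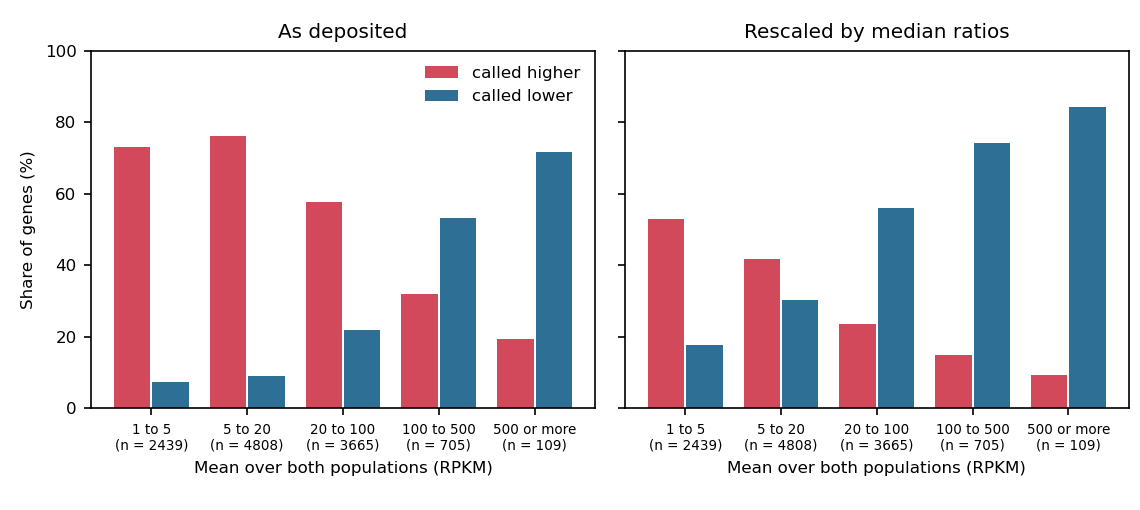
Bars give the percent of tested symbols called higher (red) or lower (blue) in ductal cells, in 5 classes of mean RPKM over both populations, as deposited (left) and rescaled by median ratios (right). The share called lower grows from 7.34% at 1 to 5 RPKM to 71.6% above 500 RPKM as deposited, and from 17.6% to 84.4% rescaled.

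The 10 largest increases included genes of signalling, the matrix and the cell surface, and their hepatocyte levels were highest in library 118. Rgs5, a regulator of G protein signalling that also marks pericytes (NM_009063, chromosome 1, 171585632 to 171623657 in mm9), stood at 1453, 953, 1480.2, 1613 and 1494 RPKM in the ductal libraries and 21.8, 7.67, 11.8 and 5.32 RPKM in hepatocytes. Values are in the order of library numbers above, here and below. The ductal values were all over 40 times the hepatocyte ones, with a log2 difference of 6.94 ± 0.3 (SE), adjusted p = 8.83e-11. Mdk, the heparin-binding growth factor midkine (NM_001012336, chromosome 2, 91769979 to 91771950), stood at 115, 104, 162, 204 and 76.3 RPKM in the ductal libraries and 2.05, 0.27, 0.54 and 0.3 RPKM in hepatocytes. The log2 difference was 6.24 ± 0.29 (SE), adjusted p = 1.76e-10, and library 118 was the highest hepatocyte. Tinagl1, a secreted matrix-associated protein (NM_001168333, chromosome 4, 129842844 to 129852046), stood at 255, 217, 345, 356 and 437 RPKM in the ductal libraries and 19.1, 1.4, 2.25 and 2.67 RPKM in hepatocytes. It rose by 6.0 ± 0.47 (SE), adjusted p = 2.53e-08, and by 6.68 without hepatocyte library 118. Igfbp7, a secreted binding protein of insulin-like growth factors, stood at 1228, 852, 1013, 838 and 1018 RPKM in the ductal libraries and 130.1, 2.34, 5.01 and 7.18 RPKM in hepatocytes. The groups did not overlap, but the log2 difference of 6.34 became 7.48 without hepatocyte library 118 and 5.72 without hepatocyte library 225. The same ranking held Cd24a, a small surface glycoprotein (6.68, 7.34 without library 118), and Ctgf, a matricellular protein (6.22). Pamr1 (5.95), Tesc, a calcium-binding protein (5.92), Slco3a1, an organic anion carrier (5.83), and Pdlim4, an actin-associated LIM protein (5.73), completed the 10 genes. Each of the 10 was highest among hepatocytes in library 118, and each kept its call without it.

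**Figure D3:**
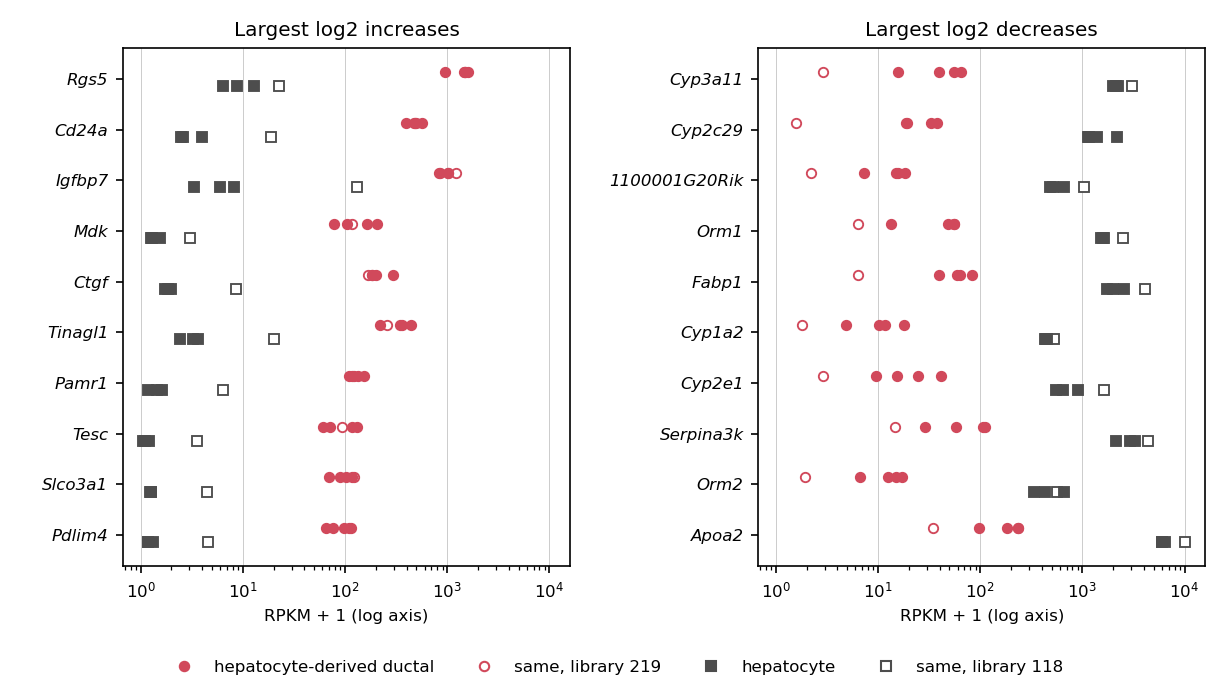
Each symbol is 1 library, at its RPKM + 1 on a log axis, for the 10 genes of largest increase (left) and of largest decrease (right). Red circles are hepatocyte-derived ductal libraries, grey squares are hepatocyte libraries, and open symbols are ductal library 219 and hepatocyte library 118. Circles and squares do not overlap for any of the 20 genes, the open square is the highest hepatocyte value in the left panel, and the open circle is the lowest ductal value in the right panel.

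Counted in RPKM rather than in folds, 2 secreted proteins dominated the gain. Clu, the extracellular chaperone clusterin, stood at 23114, 21852, 24441, 25039 and 21114 RPKM in the ductal libraries and 5130.4, 4725, 5187 and 3676 RPKM in hepatocytes, and was the most abundant symbol of every ductal library. Spp1, the matrix phosphoprotein osteopontin, stood at 18846, 17359, 16079.6, 18405 and 17109 RPKM in the ductal libraries and 1364, 847, 965 and 578 RPKM in hepatocytes. Clu rose by 2.31 ± 0.18 (SE), adjusted p = 3.25e-08, and Spp1 by 4.29 ± 0.21 (SE), adjusted p = 2.87e-10, both without overlap, although the Clu call was lost when symbols of very low level were kept in the fit (adjusted p = 0.208). Tm4sf4, a membrane protein with 4 spanning segments, rose from 472 ± 84.2 to 2166 ± 144 RPKM (2.21), and Anxa5, a phospholipid-binding annexin, from 442 ± 108 to 1823 ± 274 (2.06). Cyr61, a matricellular protein, stood at 590.2, 1372, 809.8, 1261 and 1155 RPKM in the ductal libraries and 151, 58.1, 73.7 and 81.4 RPKM in hepatocytes. The immediate early transcription factors Egr1 (3.25) and Fos (2.55) rose as well, with Fos at 376, 1470.2, 942, 1117 and 1009 RPKM in ductal cells and 298, 109.8, 106 and 157 in hepatocytes, so that the ductal library 219 came close to the hepatocyte library 118. Tmsb4x, which sequesters actin monomers, stood at 750.2, 660.4, 762, 906 and 998 RPKM in the ductal libraries and 551, 7.49, 16.4 and 18.2 RPKM in hepatocytes. Library 118 set the hepatocyte mean of Tmsb4x, and its log2 difference of 4.51 became 5.83 without 118 and 3.83 without hepatocyte library 225.

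The 10 largest decreases included cytochromes P450, acute-phase carriers and lipid-binding proteins. Cyp3a11, a drug- and steroid-oxidizing P450 (NM_007818, chromosome 5, 146666183 to 146691430), stood at 1.87, 38.3, 64.2, 55 and 14.8 RPKM in the ductal libraries and 3092, 1978, 2246 and 2118 RPKM in hepatocytes. Every ductal value was under 4% of every hepatocyte value, and ductal library 219 was the lowest. The log2 difference of -6.66 ± 1.1 (SE), adjusted p = 5.86e-05 became -5.9 without ductal library 219. Cyp2c29, another P450, stood at 0.58, 17.8, 31.9, 36.4 and 18.1 RPKM in the ductal libraries and 1153, 1129, 1385 and 2174 RPKM in hepatocytes and fell by 6.58 on the log2 scale (a log2 difference of -5.77 without ductal library 219). Fabp1, the liver fatty acid-binding protein, stood at 5.42, 82.6, 57.9, 61.9 and 38.3 RPKM in the ductal libraries and 4130.5, 1725, 1983 and 2577 RPKM in hepatocytes (log2 difference -6.02, and -5.38 without 219). The caffeine-metabolizing Cyp1a2 (-6.01), the ethanol-inducible Cyp2e1 (-5.99), the orosomucoids Orm1 (-6.07) and Orm2 (-5.85), Serpina3k (-5.96), the apolipoprotein Apoa2 (-5.76) and 1100001G20Rik (-6.12) made up the rest of the 10. All 10 had their lowest ductal value in library 219. Cyp3a11, Cyp2c29, Orm1 and Orm2 have near-identical paralogs among which reads could be split, so their levels are uncertain.

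In absolute terms the loss was led by plasma proteins. Alb, albumin, stood at 3152, 6810.3, 4614, 3706 and 4986 RPKM in the ductal libraries and 29747, 33681, 31050.3 and 47947 RPKM in hepatocytes, the groups not overlapping (log2 difference -2.96 ± 0.24 (SE), adjusted p = 4.48e-08). Apolipoproteins Apoa1 (-4.03), Apoc1 (-4.41) and Apoe (-1.66), the haem carrier Hpx (-3.34), transferrin, Trf (-1.97), haptoglobin, Hp (-1.99), and the selenium carrier Sepp1 (-1.86, a call lost under quantile normalization) fell too. Other hepatocyte transcripts stayed abundant. Gc, the vitamin D carrier, stood at 4001, 4193, 3759.8, 3717 and 4319 RPKM in the ductal libraries and 8910.0, 7943, 7969 and 7467 RPKM in hepatocytes (log2 difference -1.01, and 0.043 under quantile normalization). Ahsg, fetuin-A, stood at 3241, 4556, 3800.0, 4038 and 3078 RPKM in the ductal libraries and 6693, 5939.5, 6473 and 8934 RPKM in hepatocytes (-0.9, and 0.3 under quantile normalization). Serpina1b, an alpha-1-antitrypsin with near-identical paralogs, stood at 1517, 1629.9, 1257, 1080.2 and 1775 RPKM in the ductal libraries and 1932, 1526, 1427 and 1862 RPKM in hepatocytes, overlapping, and was not called (-0.23 ± 0.36 (SE), adjusted p = 0.575), but rescaled it was called lower (-1.03). In ductal library 219 these 3 genes lay within the range of the other ductal libraries, unlike Cyp3a11 or Fabp1. In cholangiocyte-derived ductal cells their means were 1430.3, 629.8 and 175 RPKM. The fibrinogen chains Fga (-2.24), Fgb (-1.79, a call lost under quantile normalization) and Fgg (-2.65) lay in between.

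Promoter sequences, the 250 bases before the start of transcription, are shown for 6 of these genes from RefSeq (assembly GRCm38.p6, not the mm9 build of the expression table) so that the searched motifs can be seen in place. They are Tinagl1 and Cyr61, matrix-associated genes that rose, Tm4sf4, an abundant gene that rose, Ctxn1, which rose from under 1 RPKM, and Alb and the bile acid enzyme Cyp8b1, which fell. Capitals mark matches, on either strand, to 7 short motifs that were searched for in every promoter of the table, and the motifs present are named after the sequences.

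Tinagl1: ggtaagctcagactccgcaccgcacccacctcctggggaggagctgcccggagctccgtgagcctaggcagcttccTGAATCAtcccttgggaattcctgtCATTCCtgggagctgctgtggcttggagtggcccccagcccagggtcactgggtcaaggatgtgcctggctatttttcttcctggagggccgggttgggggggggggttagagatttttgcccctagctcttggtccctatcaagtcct

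Cyr61: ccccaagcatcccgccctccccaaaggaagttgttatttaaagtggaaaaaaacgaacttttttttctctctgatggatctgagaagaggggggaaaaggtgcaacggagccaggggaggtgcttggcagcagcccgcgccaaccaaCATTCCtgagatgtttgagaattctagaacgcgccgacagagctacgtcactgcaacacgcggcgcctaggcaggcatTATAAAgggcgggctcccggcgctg

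Tm4sf4: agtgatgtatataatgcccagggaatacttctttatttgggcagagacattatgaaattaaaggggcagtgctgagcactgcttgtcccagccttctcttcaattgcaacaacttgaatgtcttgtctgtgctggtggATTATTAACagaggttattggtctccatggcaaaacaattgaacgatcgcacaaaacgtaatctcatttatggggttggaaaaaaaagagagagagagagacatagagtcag

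Ctxn1: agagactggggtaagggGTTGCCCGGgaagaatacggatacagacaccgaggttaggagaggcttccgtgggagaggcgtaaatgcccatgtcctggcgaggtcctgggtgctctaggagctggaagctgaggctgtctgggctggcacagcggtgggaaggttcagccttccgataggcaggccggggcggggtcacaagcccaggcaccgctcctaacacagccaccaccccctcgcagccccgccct

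Alb: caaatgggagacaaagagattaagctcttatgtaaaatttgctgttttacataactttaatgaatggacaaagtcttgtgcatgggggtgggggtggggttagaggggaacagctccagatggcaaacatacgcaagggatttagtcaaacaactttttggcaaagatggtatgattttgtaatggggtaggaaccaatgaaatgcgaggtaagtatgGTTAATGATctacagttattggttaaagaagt

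Cyp8b1: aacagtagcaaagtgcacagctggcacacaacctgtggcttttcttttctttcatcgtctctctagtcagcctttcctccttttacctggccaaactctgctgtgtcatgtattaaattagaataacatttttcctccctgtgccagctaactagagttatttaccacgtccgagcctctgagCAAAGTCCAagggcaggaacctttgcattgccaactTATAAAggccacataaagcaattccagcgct

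The sequences run 5′ to 3′ on the gene's strand, at chr4:130175123-130175372, minus strand for Tinagl1, chr3:145649986-145650235, minus strand for Cyr61, chr3:57425160-57425409, plus strand for Tm4sf4, chr8:4259275-4259524, minus strand for Ctxn1, chr5:90460620-90460869, plus strand for Alb and chr9:121916306-121916555, minus strand for Cyp8b1. Tinagl1 held a TEAD and an AP-1 match, Cyr61 a TATA box and a TEAD match, Tm4sf4 and Alb an HNF1 match, Ctxn1 an RFX match, and Cyp8b1 a TATA box and an HNF4 match. The table held 27025 promoters of this length, and the share of them with a match on either strand gives the background. The TEAD motif was searched as GGAATG and occurred in 12.6% of these promoters. For AP-1 the search was for TGANTCA, which was present in 6.87%. For the TATA box it was for TATAAA, which was present in 13% of promoters. HNF1 was searched as GTTAATNAT, present in 0.781% of all promoters in the table. HNF4 was searched as CAAAGTCCA, present in 0.381% of all promoters in the table. RFX was searched as GTTGCCNNG, present in 4.19% of all promoters in the table. The last motif, NF-kB, was searched as GGGNNTTTC and was present in 3.79% of promoters, and in none of the 6 shown. A match is a run of letters, not a binding site. A comparison of GC content or motifs between the genes that rose and those that fell was void, because only 826 of the 1095 symbols higher at least 4-fold (75.4%) and 335 of the 429 lower (78.1%) had a promoter in the table.

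Some transcripts separated the groups as present and absent. Under 1 RPKM in every hepatocyte library and at 5 RPKM or more in every ductal library were 172 symbols (101 after rescaling). Each was called higher (66.2% of all symbols were), but the choice by these same values all but fixed that. Ctxn1, a small neuronal membrane protein (NM_183315, chromosome 8, 4257646 to 4259274), stood at 82.6, 59.2, 66.2, 63.5 and 54.5 RPKM in the ductal libraries and 0.96, 0.55, 0.66 and 0.16 RPKM in hepatocytes. Dcdc2a, a doublecortin-domain protein of cilia and microtubules, stood at 60.5, 29.5, 67, 66.5 and 68.3 RPKM in the ductal libraries and 0.82, 0.41, 0.62 and 0.47 RPKM in hepatocytes. The kinesin Kif12 was at 59.8, 39.7, 37.7, 29 and 33 RPKM in the ductal libraries and 0.55, 0.04, 0.19 and 0.19 RPKM in hepatocytes. These were on in all ductal libraries and near the limit of detection in all hepatocytes. Next in level were Egflam, a matrix protein (ductal mean 36.6 ± 10.7 RPKM), the T-box transcription factor Tbx1 (33.9 ± 12.4), Kcne3, a subunit of potassium channels (33 ± 10), Arhgef10, a guanine nucleotide exchange factor (29.7 ± 2.93), Mmp11, a matrix metalloproteinase (29.7 ± 4.29), and the ephrin ligand Efna4 (26.8 ± 3.78). Of the 172, 144 were also at 5 RPKM or more in every cholangiocyte-derived ductal library, and 19 had a mean under 5 RPKM there. Rgs4, a second regulator of G protein signalling, was one of the latter, at 18.2, 23.9, 16.1, 19.1 and 58.7 RPKM in the ductal libraries and 0.35, 0.04, 0.12 and 0.36 RPKM in hepatocytes and a mean of 1.3 RPKM in cholangiocyte-derived cells. Without hepatocyte library 118 the count was 339, of which 22 were gamma protocadherin symbols that share exons.

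The opposite pattern was 5 RPKM or more in every hepatocyte library and under 1 RPKM in every ductal library. It held for 14 symbols (29 after rescaling, and 17 without hepatocyte library 118). Each of the 14 was called lower (14.8% of all symbols were), which the choice by these same values again all but fixed. Cyp8b1, the sterol 12-alpha-hydroxylase that sets the make-up of bile acids (NM_010012, chromosome 9, 121823474 to 121825423), stood at 0.17, 0.47, 0.64, 0.38 and 0.5 RPKM in the ductal libraries and 25.7, 18.5, 9.92 and 39.6 RPKM in hepatocytes. Rdh16, a retinol dehydrogenase, stood at 0.09, 0.37, 0.49, 0.43 and 0.08 RPKM in the ductal libraries and 12.3, 12.7, 12.8 and 14.6 RPKM in hepatocytes. Leap2, a secreted liver peptide that blocks the ghrelin receptor, was at 0.41, 0.71, 0.74, 0.59 and 0.61 RPKM in the ductal libraries and 9.1, 11.1, 10.2 and 24.6 RPKM in hepatocytes. All 3 were present in each hepatocyte library. Csrp3, a LIM-domain protein best known from muscle, stood at 0, 0.3, 0.23, 0.66 and 0.06 RPKM in the ductal libraries and 13.3, 8.84, 10.5 and 17.9 RPKM in hepatocytes. Ductal values of these genes lay between 0 and 0.74 RPKM, a low level at which short transcripts rest on few reads. Cyp2c37 stood at 0, 0.39, 0.3, 0.52 and 0.85 RPKM in the ductal libraries and 16.3, 14.2, 18.6 and 113 RPKM in hepatocytes, with hepatocyte library 611 far above the other hepatocytes, and its log2 difference of -4.32 was -3.64 without that library. Cyp2c54 (-4.73), Cyp2c67 (-3.64) and the MHC class I gene H2-Q1 (-3.96) are members of families with near-identical copies. The uncharacterized 9130409I23Rik (-3.39) and Gm11437 (-2.58) followed.

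Most transcription factors of ductal and epithelial cells were higher. Of 39 tested, 34 rose and 2 fell (87.2% and 5.13% of the list, beside 66.2% and 14.8% of all symbols), with a median log2 difference of 1.59 beside 0.67 for all symbols (29 and 2 rescaled, 29 and 3 under quantile normalization). Glis2, a Gli-related zinc finger factor of ciliated epithelia, stood at 89.9, 105, 84.4, 68.7 and 74 RPKM in the ductal libraries and 1.14, 0.69, 0.8 and 0.38 RPKM in hepatocytes. The log2 difference was 5.61 ± 0.14 (SE), adjusted p = 1.19e-12. Sox4, an HMG-box factor that acts with Sox9 in bile duct development, stood at 169.8, 183, 144, 161 and 172 RPKM in the ductal libraries and 3.48, 4.51, 7.25 and 4.77 RPKM in hepatocytes. The ETS factor Etv4 rose from 0.26 ± 0.0583 to 24.4 ± 5.7 RPKM (4.31). Gata6, a zinc finger factor of endodermal lineages, rose by 3.05, whereas its relative Gata4 fell by 1.26 on the log2 scale, from 4.34 ± 0.813 to 1.24 ± 0.39 RPKM. Tbx3, a T-box repressor of the liver bud, was the other factor that fell (-1.21, from 2.4 ± 0.943 RPKM). Id2, an inhibitor of basic helix-loop-helix factors and the most abundant of the list, rose by 0.95 as deposited and was not called rescaled (0.15, adjusted p = 0.498).

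Genes of the chromatin and RNA machinery of the nucleus were higher in nearly every case as deposited. As background, 66.2% of all symbols were higher and 14.8% lower on that scale. All 41 tested genes of SWI/SNF remodelling, Polycomb repression and DNA methylation were called higher, with a median of 1.43 (31 higher and 2 lower rescaled, 30 and 2 under quantile normalization). Smarcd3, a SWI/SNF subunit, rose from 1.61 ± 0.097 to 14 ± 1.63 RPKM (2.52), and Cbx7, a Polycomb reader of histone methylation, from 3.42 ± 0.437 to 19 ± 3.37 (2.17). Bmi1, a Polycomb ring finger protein, stood at 32, 33.7, 30.8, 29.5 and 30.8 RPKM in the ductal libraries and 12.1, 11.3, 11.1 and 9.31 RPKM in hepatocytes, a narrow spread within each group. Rnf2, the ubiquitin ligase of the same complex (1.48), Smarcb1, a core SWI/SNF subunit (1.45), and the deacetylase Hdac3 (1.44) behaved alike in size. Of 45 splicing genes 43 rose and 1 fell, with a median of 0.94 (23 and 5 rescaled, 37 and 3 under quantile normalization). The branch-point factors Sf3a1 (1.45) and Sf3b1 (1.24), the polypyrimidine-tract factor U2af2 (1.11) and Rbfox2, which steers alternative exons (1.85), were among those that rose. Hnrnpa2b1 rose as deposited (0.45) and fell rescaled (-0.35). Esrp2, a splicing regulator of epithelial and hepatocyte transcripts, fell, at 18.3, 25.8, 17.9, 17.8 and 15.4 RPKM in the ductal libraries and 24, 30.8, 35.1 and 41.1 RPKM in hepatocytes (-0.75).

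The cytoskeleton differed in many of its parts. Of 49 actin and contractility genes 41 rose and 1 fell (83.7% and 2.04% of the list, beside 66.2% and 14.8% of all symbols), with a median of 1.24 (25 and 12 rescaled, 39 and 5 under quantile normalization). Flna, the actin crosslinker filamin A, stood at 258, 198, 277, 269 and 256 RPKM in the ductal libraries and 10.6, 9.71, 9.92 and 5.33 RPKM in hepatocytes and rose by 4.71 ± 0.16 (SE), adjusted p = 8.81e-12. Ezr, which ties microvilli to the membrane, rose from 7.12 ± 2.59 to 70.1 ± 12.9 RPKM (3.16), villin, Vil1, of microvilli from 0.647 ± 0.118 to 10 ± 2.09 (2.72), and the crosslinker Actn1 from 17.4 ± 0.339 to 98.1 ± 13.1 (2.42). Actb rose by 1.05 as deposited and was not called rescaled (0.24). The one gene that fell was Lcp1, the plastin of blood cells, from 58.6 ± 13.7 to 16.3 ± 0.944 RPKM (-1.75). Among 22 tubulins and microtubule proteins 13 rose and 3 fell as deposited, against 9 and 9 rescaled and 11 and 5 under quantile normalization. Tubb2b stood at 48.4, 34.7, 51.1, 51.1 and 48.5 RPKM in the ductal libraries and 1.25, 0.94, 1.37 and 0.39 RPKM in hepatocytes. Tuba8 was at 0.99, 1.58, 2.22, 1.15 and 0.89 RPKM in the ductal libraries and 13.9, 14.9, 15 and 14.7 RPKM in hepatocytes. These 2 tubulin genes moved in opposite directions, without overlap as deposited, and Tuba1a (4.61) went with the former and Tuba4a (-0.8) with the latter.

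At the cell surface, 29 of 39 tetraspanins and surface glycoproteins rose and 2 fell (74.4% and 5.13% of the list, beside 66.2% and 14.8% of all symbols), with a median of 1.32 (21 and 7 rescaled, 26 and 3 under quantile normalization). Bcam, a laminin receptor, stood at 169, 154, 149, 135 and 145 RPKM in the ductal libraries and 6.59, 1.75, 2.57 and 2.15 RPKM in hepatocytes, with a log2 difference of 5.27 ± 0.22 (SE), adjusted p = 6.3e-11. Cd44, a receptor for hyaluronan and osteopontin, stood at 222, 136, 225, 239 and 245 RPKM in the ductal libraries and 9.97, 14.7, 13.7 and 8.69 RPKM in hepatocytes (4.07). F11r, a tight junction adhesion molecule, rose by 1.93, Tspan3 by 4.37, and Cd200, a ligand that restrains myeloid cells, by 3.97. The heparan sulfate proteoglycan Sdc2 (-0.68) and Tspan31 (-0.58) fell. Annexins and S100 proteins bind calcium and membranes. Of 21 tested, 11 rose and 3 fell (52.4% and 14.3% of the list, beside 66.2% and 14.8% of all symbols), with a median of 0.8 (8 and 5 rescaled, 11 and 4 under quantile normalization). Anxa13, an annexin of apical epithelial membranes, stood at 91.3, 85.4, 91.6, 101 and 92.8 RPKM in the ductal libraries and 5.44, 0.26, 0.4 and 0.28 RPKM in hepatocytes. Anxa3 was at 135, 93.9, 119, 95.1 and 129 RPKM in the ductal libraries and 11.7, 0.41, 0.76 and 0.95 RPKM in hepatocytes. Library 118 was the highest hepatocyte for both, and the log2 difference of Anxa3 (5.35) was 6.08 without it. Anxa4 rose by 2.15. S100g (-1.91), S100a1 (-0.57) and S100a10 (-0.4) fell as deposited, although S100a10 was at 0.31 under quantile normalization.

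Genes for the movement of ions and water had members at both extremes. Of 40 tested channels, pumps and carriers of ductal secretion, 28 rose and 6 fell (70% and 15% of the list, beside 66.2% and 14.8% of all symbols), with a median of 1.17 (21 and 9 rescaled, 19 and 7 under quantile normalization). Cftr, the chloride channel of bile ducts, stood at 9.15, 7.64, 11.2, 12.4 and 17 RPKM in the ductal libraries and 0.64, 0, 0.02 and 0.05 RPKM in hepatocytes. Sctr, the receptor through which secretin drives ductal secretion, was at 10.8, 8.71, 19.3, 26.2 and 7.28 RPKM in the ductal libraries and 0.35, 0, 0.05 and 0.08 RPKM in hepatocytes. Both were under 1 RPKM in hepatocytes and present in every ductal library (log2 differences 3.4 and 3.65). Clic6, an intracellular chloride channel protein, rose by 4.02, Ano6, a calcium-activated scramblase, by 2.85, the sodium-glucose carrier Slc5a1 by 3.75 and Atp1b1, a beta chain of the sodium pump, by 2.28. Aqp8, the water channel of the hepatocyte canaliculus, stood at 1.83, 5.19, 8.11, 6.71 and 2.81 RPKM in the ductal libraries and 208, 256, 299 and 241 RPKM in hepatocytes, without overlap, and fell by 5.53 on the log2 scale (adjusted p = 1.41e-08). Kcnn2, a potassium channel (-1.4), and Ostb, a subunit of the basolateral bile acid exporter (-1.68), fell too. Slc10a2, the apical bile acid carrier, stood at 41.5, 37, 32.1, 34.2 and 44.7 RPKM in the ductal libraries and 20.4, 49.4, 36.9 and 41.1 RPKM in hepatocytes, overlapped and was not called (0.092 ± 0.22 (SE); rescaled it was called lower, -0.69).

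Secreted ligands rose and fell in shares near those of all symbols. Of 47 tested, 31 rose and 8 fell (66% and 17% of the list, beside 66.2% and 14.8% of all symbols), with a median of 1.07 (26 and 12 rescaled, 22 and 10 under quantile normalization). Tgfb3, a transforming growth factor, stood at 21.6, 16.5, 17.2, 18.2 and 15.5 RPKM in the ductal libraries and 0.63, 0.04, 0.14 and 0.15 RPKM in hepatocytes, and Tgfb2 rose from 3.12 ± 1.13 to 44.7 ± 9.32 RPKM (3.49). The Wnt ligand Wnt7a stood at 15.2, 11.7, 10.2, 11.4 and 11.3 RPKM in the ductal libraries and 0.21, 0.14, 0.35 and 0.27 RPKM in hepatocytes (3.37). All 3 were at most 4.12 RPKM in hepatocytes, and the groups did not overlap. Igf1, the growth factor secreted by the liver, stood at 19.1, 21.1, 22.8, 18.7 and 16.2 RPKM in the ductal libraries and 179.9, 147, 147 and 187 RPKM in hepatocytes and fell by 3.02 (adjusted p = 2.5e-11). The epidermal growth factor receptor ligand Areg (-1.6, from 3.41 ± 1.75 RPKM) fell as well.

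Of 57 receptors 35 rose and 10 fell (61.4% and 17.5% of the list, beside 66.2% and 14.8% of all symbols), with a median of 0.88 (27 and 14 rescaled and under quantile normalization). Several receptor tyrosine kinases rose. Erbb2 stood at 10.8, 10.8, 10.2, 11.8 and 11.2 RPKM in the ductal libraries and 0.68, 0.02, 0.08 and 0.06 RPKM in hepatocytes. Ror1, a receptor of Wnt ligands, was at 15.9, 17.8, 17.8, 16.8 and 18.7 RPKM in the ductal libraries and 0.8, 0.92, 0.98 and 1.13 RPKM in hepatocytes. Ddr1, a collagen receptor, was at 203, 190.1, 189, 194 and 178 RPKM in the ductal libraries and 11.9, 20.9, 24.9 and 17.7 RPKM in hepatocytes. Within each group these values varied little beside the gap between the groups. Fgfr2 (2.44), Ephb4 (2.0) and Tnfrsf12a, the receptor of the cytokine TWEAK (1.52), rose too. The growth hormone receptor Ghr (-1.98), the interleukin-6 receptor chain Il6ra (-1.49) and Lifr, the leukaemia inhibitory factor receptor (-1.85), fell. Of 48 intracellular adaptors and feedback regulators 37 rose and 1 fell (77.1% and 2.08% of the list, beside 66.2% and 14.8% of all symbols), with a median of 1.24 (27 and 9 rescaled, 28 and 7 under quantile normalization), among them the kinase Src, at 44.8, 40.6, 43.5, 46.6 and 44.7 RPKM in the ductal libraries and 3.76, 7.22, 9.23 and 7.05 RPKM in hepatocytes, and Rgs12 (1.97). The protein kinase genes Akt1 and Akt2 differed. Akt1 rose from 36.7 ± 2.4 to 85.6 ± 1.95 RPKM (1.2), and Akt2 fell slightly, from 17.7 ± 0.96 to 15.7 ± 0.591 (-0.16 ± 0.063 (SE), adjusted p = 0.0265), a call lost in a fit on the 9 libraries alone and without any one of 4 libraries.

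Among 40 genes of cell death and senescence, 32 rose and 4 fell (80% and 10% of the list, beside 66.2% and 14.8% of all symbols), with a median of 0.92 (16 and 8 rescaled, 23 and 6 under quantile normalization). Bcl2, an inhibitor of apoptosis, stood at 8.04, 6.34, 6.96, 7.25 and 9.92 RPKM in the ductal libraries and 0.41, 0.46, 0.54 and 0.26 RPKM in hepatocytes. Birc2, a ubiquitin ligase that also restrains cell death, was at 204, 109, 152, 126 and 133 RPKM in the ductal libraries and 13.7, 16.2, 17 and 15.9 RPKM in hepatocytes. Neither gene overlapped between the groups. Mcl1 rose by 1.17. Trp53, the p53 tumour suppressor, rose from 17 ± 3.45 to 73.1 ± 7.87 RPKM (2.06), as did the cyclin Ccnd2 (3.51) and the cyclin-dependent kinase inhibitor Cdkn1b (1.47). Perp, a membrane protein induced by p53 (-0.99), the death receptor Fas (-0.57) and Birc5, which is transcribed in dividing cells (-1.87), fell. Inhibitors and promoters of cell death therefore stood on both sides of the comparison.

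Liver enzymes of sugar metabolism were lower. All 21 tested liver enzymes of glucose metabolism fell on every scale but quantile normalization, where 20 did, with a median of -2.39. The ketohexokinase Khk (-2.52), the glucokinase regulator Gckr (-2.27) and the glycogen branching enzyme Gbe1 (-2.61) were among them. G6pc, which releases glucose, stood at 24, 7.31, 30.4, 16 and 7.9 RPKM in the ductal libraries and 98, 424, 312 and 264 RPKM in hepatocytes (-3.94). Pck1, the entry enzyme of gluconeogenesis, was at 83.8, 107, 115, 61.7 and 19.8 RPKM in the ductal libraries and 1118, 1291, 825 and 495 RPKM in hepatocytes (-3.7). The ubiquitous glycolytic and pentose phosphate enzymes divided, 13 rising and 8 falling of 26 as deposited, 8 and 12 rescaled and 10 and 10 under quantile normalization. Their median was 0.38 as deposited and -0.13 rescaled. As deposited 50% rose and 30.8% fell, beside 66.2% and 14.8% of all symbols. Within this group isoenzymes went opposite ways. Ldhb stood at 18.6, 15.7, 12.9, 16.6 and 13.9 RPKM in the ductal libraries and 2.18, 0.17, 0.03 and 0.44 RPKM in hepatocytes, whereas Ldha fell from 368 ± 34.3 to 157 ± 13.3 RPKM (-1.22). The phosphofructokinase Pfkp (2.06) and G6pdx, the first enzyme of the pentose phosphate pathway (1.69), rose on both scales, and Tpi1 (-1.0) and Pgm2 (-1.19) fell.

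Of 56 liver enzymes of amino acid and one-carbon metabolism 53 fell and 2 rose, with a median of -2.18 (54 and 1 rescaled, 51 and 3 under quantile normalization). As deposited these were 94.6% and 3.57% of the list, beside 14.8% and 66.2% of all symbols. Cps1, the first enzyme of the urea cycle, stood at 14.2, 41.9, 42.6, 27 and 18.9 RPKM in the ductal libraries and 568, 973, 811 and 1326 RPKM in hepatocytes. Ass1, a later enzyme of the cycle counted with the hepatocyte markers, was at 3.81, 12.7, 16.7, 11.6 and 8.8 RPKM in the ductal libraries and 301, 295, 285 and 426 RPKM in hepatocytes. Ductal values were under 10% of hepatocyte values for both, with ductal library 219 lowest. Gstz1 (-2.32), Aldh6a1 of valine breakdown (-2.21) and the mitochondrial serine hydroxymethyltransferase Shmt2 (-1.92) fell by less. Sdsl, a serine dehydratase-like enzyme, rose (1.27), and the alanine transaminase Gpt2 rose as deposited (0.49 ± 0.2 (SE), adjusted p = 0.0305) but not rescaled (-0.31), nor without any one of 5 of the libraries. Enzymes that make serine, glutamine products and nucleotides split differently, with 17 higher and 5 lower of 31 (9 and 12 rescaled, 11 and 12 under quantile normalization). As deposited 54.8% rose and 16.1% fell, beside 66.2% and 14.8% of all symbols. Ctps, which makes cytidine nucleotides (2.1), Aldh18a1 of proline synthesis (2.07) and Impdh1 of guanine nucleotide synthesis (2.36) rose on both scales, while the branched-chain transaminase Bcat2 (-1.51) and the cystine carrier Slc7a11 (-1.85) fell.

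Lipid genes fell in 3 related lists. In the order below, lower calls made up 85.2%, 66.7% and 78.4% of a list as deposited, and higher calls 3.7%, 12.1% and 10.8%. Among all symbols the shares were 14.8% lower and 66.2% higher. Of 27 cholesterol synthesis genes 23 fell and 1 rose, with a median of -1.48 (26 and 0 rescaled, 25 and 1 under quantile normalization). Sc5d, a late sterol desaturase, stood at 58.1, 69.2, 59, 53.9 and 68.6 RPKM in the ductal libraries and 245, 273, 299 and 319.7 RPKM in hepatocytes. Srebf2, the transcription factor of the pathway, stood at 53.7, 59, 59.5, 63.1 and 67.9 RPKM in the ductal libraries and 17, 31, 31.7 and 33.4 RPKM in hepatocytes and rose as deposited (1.11), and was not called rescaled (0.33). The enzymes and their regulator thus differed in direction as deposited. Of 33 genes of fatty acid and triglyceride synthesis 22 fell and 4 rose, with a median of -0.6 (31 and 2 rescaled, 20 and 3 under quantile normalization). Scd1, the liver desaturase that makes oleate, stood at 21, 29.1, 66, 50.4 and 38.1 RPKM in the ductal libraries and 626, 1429, 1539 and 1352 RPKM in hepatocytes. Its relative Scd2 was at 27.9, 34.3, 34.9, 36.4 and 42.3 RPKM in the ductal libraries and 5.52, 7.72, 12.2 and 1.69 RPKM in hepatocytes. The pair went opposite ways without overlap (-4.91 and 2.42). Cidea, a lipid droplet protein, rose from 0.333 ± 0.0818 to 6.19 ± 1.03 RPKM. Of 37 lipoprotein and lipid carrier genes 29 fell and 4 rose, with a median of -2.55 (30 and 2 rescaled, 33 and 3 under quantile normalization), and the list's share of the summed RPKM was 1.33 to 1.97% against 8.02 to 9.67%. Hepatic lipase, Lipc, stood at 3.55, 5.04, 4.79, 4.25 and 4.23 RPKM in the ductal libraries and 106, 88, 90.8 and 159.6 RPKM in hepatocytes. Vldlr, the receptor for very low density lipoprotein, was at 13.6, 12.8, 12.8, 13.2 and 10.1 RPKM in the ductal libraries and 0.22, 0.15, 0.45 and 0.32 RPKM in hepatocytes. Apobec1, which edits the Apob transcript, rose (2.01) while Apob itself fell (-2.0).

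Protective, iron and retinoid genes were lower, with exceptions among regulators. Lower calls made up 84.1%, 65.7% and 70% of these lists as deposited, and higher calls 9.09%, 11.4% and 22.5%. All symbols together had 14.8% lower and 66.2% higher. Of 44 glutathione and antioxidant genes 37 fell and 4 rose, with a median of -0.9 (41 and 3 rescaled, 34 and 4 under quantile normalization). Nqo1, a quinone reductase, stood at 3.82, 4.81, 4.48, 4 and 3.83 RPKM in the ductal libraries and 56.5, 44, 44.5 and 34 RPKM in hepatocytes. The sulfiredoxin Srxn1 was at 28.6, 31, 38, 30.8 and 29 RPKM in the ductal libraries and 194, 299, 266 and 188 RPKM in hepatocytes. Nfe2l2, the transcription factor NRF2 that drives both genes, stood at 139.6, 138, 139, 162 and 177 RPKM in the ductal libraries and 47.7, 34.4, 51.5 and 57.2 RPKM in hepatocytes and rose by 1.66 ± 0.14 (SE), adjusted p = 4.79e-08. The factor's transcript was higher and those of the pair of its known targets lower, with no overlap in either case. Prdx2 (1.11) and the secreted glutathione peroxidase Gpx3 (1.54) rose. Of 35 iron and haem genes 23 fell and 4 rose, with a median of -0.64 (31 and 2 rescaled, 22 and 3 under quantile normalization). Hamp, the iron hormone hepcidin, stood at 104, 176, 105, 154 and 146 RPKM in the ductal libraries and 2707, 1533, 1761 and 1362 RPKM in hepatocytes (-3.72). Hfe2, its hemojuvelin co-receptor, was at 2.44, 4.23, 3.56, 4.16 and 1.84 RPKM in the ductal libraries and 60.4, 73.3, 87.6 and 66.6 RPKM in hepatocytes (-4.13). Fth1, the ferritin heavy chain, fell (-1.02, and 0.19 under quantile normalization), and Ppox of haem synthesis rose (1.08). Bmp6, the signal that raises hepcidin in hepatocytes, stood at 58.4, 45.9, 71.1, 68.6 and 68.7 RPKM in the ductal libraries and 7.01, 31.3, 25.6 and 14.9 RPKM in hepatocytes and rose by 1.79 ± 0.3 (SE), adjusted p = 7.78e-05. Of 40 retinol, alcohol and aldehyde enzymes and retinoid receptors 28 fell and 9 rose, with a median of -1.27 (31 and 7 rescaled, 28 and 9 under quantile normalization). Aldh2 (-1.75), Aldh1l1 (-2.47) and the retinol carrier Rbp4 (-2.15) fell, and the retinoic acid receptors Rarb, at 13.9, 13, 15.9, 14.5 and 13.2 RPKM in the ductal libraries and 3.93, 4.39, 3.71 and 3.56 RPKM in hepatocytes, and Rarg (1.68) rose.

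Housekeeping machinery showed where the scale decides the direction. As deposited 66.2% of all symbols were higher and 14.8% lower, and rescaled 37.5% and 36.3%. Of 66 ribosomal protein genes 45 rose and 1 fell as deposited, 0 rose and 19 fell rescaled, and 33 rose and 21 fell under quantile normalization, with medians of 0.47, -0.28 and 0.27. Of 33 translation factors 23 rose and 1 fell as deposited, 0 and 24 rescaled, and 21 and 5 under quantile normalization. As deposited and with all libraries, 68.2% of the ribosomal and 69.7% of the translation genes were higher, near the share of all symbols. Hepatocyte library 118 was high for ribosomal proteins. Without it 55 ribosomal genes rose and 1 fell, and 25 translation factors rose and 1 fell. Of all 12638 symbols 8688 rose and 1915 fell in that fit, so the ribosomal share was then above that of all symbols. The medians in that fit were 0.68 for ribosomal proteins and 0.68 for all symbols. Rplp0, a ribosomal stalk protein, stood at 279, 262, 243, 251 and 263 RPKM in the ductal libraries and 212, 167, 152 and 144 RPKM in hepatocytes, a log2 difference of 0.63 as deposited and -0.17, not called, rescaled. Proteasome genes changed little as deposited, with 3 higher and 4 lower of 36, but 0 and 35 rescaled, and 14 and 6 under quantile normalization. Without hepatocyte library 118, 9 were higher and 3 lower. Most genes of 2 other lists were lower under all 3 scalings. Of 75 nuclear-encoded subunits of the respiratory chain 68 fell and 0 rose, with a median of -0.64 (75 and 0 rescaled, 54 and 3 under quantile normalization). Uqcrq, a subunit of complex III, stood at 124, 127, 114, 108 and 97.7 RPKM in the ductal libraries and 719, 405, 418 and 426 RPKM in hepatocytes. Sdha of complex II was at 145, 150.2, 138, 128 and 133 RPKM in the ductal libraries and 239, 262, 248 and 239 RPKM in hepatocytes. Of 22 citric acid cycle genes 14 fell and 2 rose (22 and 0 rescaled, 15 and 2 under quantile normalization), such as Suclg2 (-1.35) and Fh1 (-1.21), and Idh2 (0.51, rescaled -0.29) was one of the 2. Of 38 genes of protein entry into and folding in the endoplasmic reticulum 18 fell and 4 rose, 36 and 1 rescaled, and 18 and 11 under quantile normalization, so that on 2 of the 3 scales fewer than 50% were lower. The disulfide isomerase P4hb fell (-1.16), and Stt3b, a catalytic subunit for N-glycosylation, rose on both scales, at 143, 138, 146, 155 and 172 RPKM in the ductal libraries and 45.6, 61.4, 59 and 55.4 RPKM in hepatocytes.

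Of 33 lysosomal genes 12 fell and 7 rose as deposited, 25 and 2 rescaled, and 16 and 7 under quantile normalization. Lower calls were 36.4% and higher calls 21.2% of the list as deposited, beside 14.8% and 66.2% of all symbols. Cathepsins Ctsl (-1.23) and Ctsz (-1.24) fell, and the galactosidase Glb1 rose on both scales, from 15 ± 2.74 to 42.3 ± 2.53 RPKM (1.45, rescaled 0.68). Of 20 genes of peroxisome assembly 14 fell and 2 rose (18 and 1 rescaled, 17 and 1 under quantile normalization), with Pxmp2, a peroxisomal membrane channel, at -1.77 and Pex26, a peroxin, at 1.07. Some abundant transcripts stayed within 2-fold. The 95% interval of the log2 difference lay between -1 and 1 both as deposited and rescaled for 3743 symbols (29.6%), of which 1366 had a mean of at least 20 RPKM. The most abundant of them were Cp, the copper-carrying plasma protein ceruloplasmin, at 1696, 1578, 1764, 1698 and 1913 RPKM in the ductal libraries and 813, 1321, 1292 and 1428 RPKM in hepatocytes, the simple epithelial keratins Krt18 (0.47, rescaled -0.33) and Krt8 (0.17, rescaled -0.63), the membrane protein Tmem176b (0.59, rescaled -0.22) and Ly6e (0.2, rescaled -0.61). Krt8 stood at 783, 983, 905, 869.9 and 1000.4 RPKM in the ductal libraries and 753, 1007, 838 and 652 RPKM in hepatocytes, overlapping. Krt8 and Ly6e were not called as deposited, were called lower rescaled, and were called higher under quantile normalization (1.07 and 1.05). The MHC class I genes H2-K1 (0.34) and H2-D1 (0.62), which share reads with related copies, and the elongation factors Eef1a1 (0.35) and Eef2 (0.41) belonged here too, with rescaled values of -0.46, -0.19, -0.46 and -0.39.

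**Figure D4:**
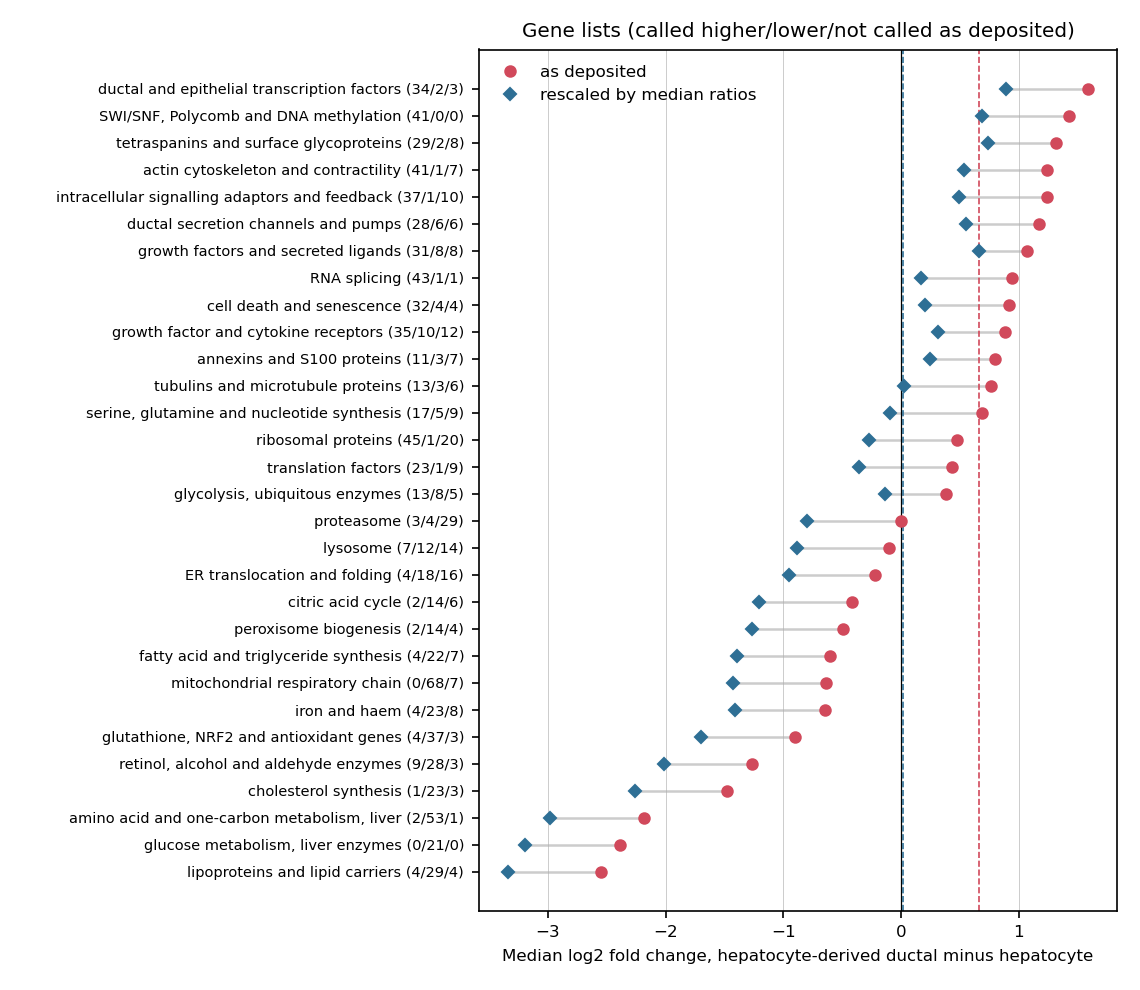
Each row is a gene list, with its median log2 difference (ductal minus hepatocyte) as deposited (red circle) and rescaled by median ratios (blue diamond) on the horizontal axis, and beside its name the numbers called higher, lower and not called as deposited. Dashed lines mark the medians of all tested symbols, 0.67 and 0.02. Transcription factor, chromatin and surface lists lie to the right and liver metabolism lists to the left on both scales, while ribosomal and translation lists lie on opposite sides of 0 on the 2 scales.

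Among the ductal markers, levels of Krt19, Krt7, Epcam and Tspan8 varied between the ductal libraries. The keratins Krt8 and Krt18 varied less, at 783 to 1000 and 1429 to 1882 RPKM in the ductal libraries. Krt19 stood at 43.7, 37.6, 26.1, 23.4 and 81.8 RPKM in the ductal libraries and 10.4, 0.09, 0.31 and 0.67 RPKM in hepatocytes. Krt7, its partner in simple epithelia, was at 47.4, 28.3, 22.6, 17.6 and 62.6 RPKM in the ductal libraries and 4.14, 0.03, 0.1 and 0.18 RPKM in hepatocytes. Ductal library 611 was the highest and 248 the lowest for both, a spread of over 3 times, and the log2 difference of Krt19 (4.11) became 4.88 without hepatocyte library 118. Epcam, an epithelial adhesion molecule, stood at 81.9, 60.8, 73.7, 73.8 and 136 RPKM in the ductal libraries and 9.02, 0.71, 0.79 and 0.98 RPKM in hepatocytes (4.89, and 5.51 without 118). The tetraspanin Tspan8 was at 153, 119.7, 162, 166 and 428 RPKM in the ductal libraries and 19.5, 14.2, 10.2 and 27.7 RPKM in hepatocytes, again with ductal 611 highest. By contrast Bicc1, an RNA-binding protein, was even across ductal libraries, at 292, 253, 265, 244 and 242 RPKM in the ductal libraries and 8.04, 13.1, 13.8 and 8.38 RPKM in hepatocytes. So was Pkhd1, which encodes fibrocystin of the primary cilium, at 50.4, 46.3, 48, 45.1 and 50.4 RPKM in the ductal libraries and 2.11, 2.96, 3.21 and 3.46 RPKM in hepatocytes. Prom1 stood at 20, 22.3, 25.9, 24.4 and 43.6 RPKM in the ductal libraries and 2.15, 1.33, 3.32 and 28.9 RPKM in hepatocytes, overlapping through hepatocyte library 611, and rose by 2.29 (3.1 without that library). Muc1, an apical mucin, rose as deposited (1.73) at 4.43, 7.39, 1.47, 4.18 and 5.66 RPKM in the ductal libraries and 2.98, 0.05, 0.1 and 0.33 RPKM in hepatocytes, a call lost under quantile normalization (adjusted p = 0.114).

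Markers of other cell types moved with single libraries. The mean log2(RPKM + 1) of 16 macrophage markers was 0.863 in ductal library 219, 2.67 to 3.03 in the other ductal libraries, 5.48 in hepatocyte library 118 and 1.24 to 1.55 in the other hepatocytes. Of 15 tested, 1 rose and 2 fell (1 and 2 rescaled and under quantile normalization, 2 and 2 without hepatocyte library 118). As deposited these were 6.67% and 13.3% of the list, beside 66.2% and 14.8% of all symbols. Rescaled, 37.5% of all symbols were higher and 36.3% lower. Under quantile normalization 4596 of all 12638 symbols were higher and 4136 lower. Emr1, which encodes the macrophage antigen F4/80, stood at 0.02, 1.51, 1.38, 2.21 and 1.6 RPKM in the ductal libraries and 21.3, 0.2, 0.46 and 0.39 RPKM in hepatocytes. Lyz2, lysozyme, was at 0.7, 60.4, 47, 58.1 and 61.8 RPKM in the ductal libraries and 589, 2.71, 6.24 and 11 RPKM in hepatocytes. Neither was called (-0.31 ± 0.75 (SE) and 0.45 ± 1.59 (SE)). Without hepatocyte library 118 the log2 differences were 0.71 and 2.05, and that of Lyz2 was -0.38 without hepatocyte library 225 and 1.46 without ductal library 219. Without libraries 118 and 219 together both genes were called higher in ductal cells (0.98, adjusted p = 0.0426, and 3.07, adjusted p = 0.0233), and Lyz2 also when libraries were weighted by their quality (2.61, adjusted p = 0.0235). Libraries 118 and 219 had been singled out partly by the levels of such markers. Leaving both out moves these genes upward by that choice and is no independent test. The same holds for Pecam1, Aqp1, S100a8 and S100a9 below. Csf1r, the receptor of macrophage colony-stimulating factor, differed in its pattern over libraries. It stood at 22.8, 20.9, 24.3, 19.9 and 21.7 RPKM in the ductal libraries and 31.9, 1.23, 1.78 and 1.57 RPKM in hepatocytes, as high in ductal library 219, where Emr1 and Marco were at 0.02 and 0 RPKM, as in the other ductal libraries. Marco, a scavenger receptor of macrophages, was not called (-0.39 ± 0.8 (SE), and 0.68 without hepatocyte library 118). The log2 difference of Csf1r was 2.26 ± 0.58 (SE), adjusted p = 0.00252, and 3.18 without hepatocyte library 118. Cd68 (-1.95) and Mpeg1 (-0.8) fell, and the Cd68 call was lost without hepatocyte library 118 and ductal library 219 together (adjusted p = 0.0505).

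Endothelial markers averaged 0.831 in ductal library 219 and 1.79 to 2.16 in the other ductal libraries, and 3.63 in hepatocyte library 118 and 0.813 to 1.28 in the others. Of 17 tested, 1 rose and 1 fell as deposited, 0 and 1 rescaled, 0 and 6 under quantile normalization, and 2 and 1 without hepatocyte library 118. As deposited higher and lower calls each made up 5.88% of the list, beside 66.2% and 14.8% of all symbols. Pecam1, which encodes the gated antigen CD31, stood at 0.09, 1.32, 2.87, 2.31 and 1.64 RPKM in the ductal libraries and 12.2, 0.18, 0.33 and 0.8 RPKM in hepatocytes and was not called (-0.022 ± 0.64 (SE), and 0.78 without 118). It was called higher without libraries 118 and 219 together (1.07, adjusted p = 0.0202) and with library weights (1.15, adjusted p = 0.00786). Egfl7, a secreted protein first known from endothelium, was again as high in ductal library 219 as in the others, at 17.2, 19, 15.6, 16 and 18.7 RPKM in the ductal libraries and 28.6, 1.63, 2 and 2.24 RPKM in hepatocytes (1.8 ± 0.54 (SE), adjusted p = 0.00646, and 2.63 without 118), although rescaling and quantile normalization ended the call (adjusted p = 0.081 and 0.0717). Aqp1, a water channel of ducts and of endothelium alike, did the opposite: at 0.77, 11.2, 17.3, 16.1 and 11.3 RPKM in the ductal libraries and 88.3, 0.94, 1.59 and 3.91 RPKM in hepatocytes, it was lowest among ductal libraries in 219 and highest of all in hepatocyte library 118. It was not called (0.49 ± 1.06 (SE)), and its log2 difference was 1.73 without hepatocyte library 118, 1.1 without ductal library 219 and -0.12 without hepatocyte library 225. It was called higher without libraries 118 and 219 together (2.34, adjusted p = 0.00535) and under library weighting (2.35, adjusted p = 0.00278). Dpp4, which encodes the gated antigen CD26, stood at 36.6, 37.4, 34.9, 32.2 and 35.2 RPKM in the ductal libraries and 49, 51.9, 49.9 and 44.2 RPKM in hepatocytes and fell (-0.46).

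Of 13 stellate and fibroblast markers 2 rose and none fell (2 and 1 under quantile normalization, 4 and 0 without hepatocyte library 118). As deposited 15.4% of the list rose, beside 66.2% higher and 14.8% lower among all symbols. The list's median log2 difference was -0.054, and 0.562 without that library. The 2 that rose with all libraries were Rgs5, described above, and Vim, the intermediate filament vimentin. Vim stood at 250.1, 229.5, 210.1, 207 and 159.9 RPKM in the ductal libraries and 42.5, 8.74, 14 and 4.59 RPKM in hepatocytes (3.94 ± 0.53 (SE), adjusted p = 7.16e-06), with ductal library 219 highest. Some listed genes were low in the same library: Des at 0.09, Pdgfrb at 0.08 and Acta2 at 0.03 RPKM, beside 1453 RPKM of Rgs5. Over all ductal libraries Des reached 0.41 and Pdgfrb 0.52 RPKM, while the maximum of Acta2 is not given here. These genes do not stand for the list, whose other members beside Rgs5 and Vim are not given. The mean over the list was 1.98 to 2.62 in ductal libraries, which include Rgs5 and Vim, and 3.14 in hepatocyte library 118 against 0.784 to 1.02 in the other hepatocytes. Of 4 neutrophil markers tested limma called none (0 at an unadjusted p under 0.05, and 0 rescaled and under quantile normalization). S100a8 and S100a9 were at 0.28 and 0.11 RPKM in ductal library 219 and 9.29 to 31.8 RPKM in the others. Their log2 differences were 1.38 ± 1.14 (SE) and 1.4 ± 1.25 (SE), and 2.4 and 2.44 without hepatocyte library 118, 2.09 and 2.24 without ductal library 219, and for S100a9 0.74 without hepatocyte library 225. Both were called higher without libraries 118 and 219 together (adjusted p = 0.0073 and 0.00876), with library weights (adjusted p = 0.00146 and 0.0023) and with the replicate block. Both tested mesothelial genes, Msln and Gpm6a, rose as deposited, to 1.77 ± 0.976 and 1.17 ± 0.926 RPKM, and under quantile normalization neither was called (rescaled, 1 was). The Msln call was also lost without any one of 5 libraries. Of 4 erythroid and platelet genes tested 3 rose and 1 fell (1 and 1 rescaled, 0 and 2 under quantile normalization), the last being Alas2, the haem synthesis enzyme of red cells (-3.36). Igj, the joining chain of antibodies and the lymphocyte marker tested, rose to 2.12 ± 1.26 RPKM (1.34) as deposited and rescaled, and was not called under quantile normalization. The background of 66.2% higher and 14.8% lower also holds for the neutrophil, mesothelial, erythroid and lymphocyte counts as deposited. The part that other cells have in these values was not tested.

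**Figure D5:**
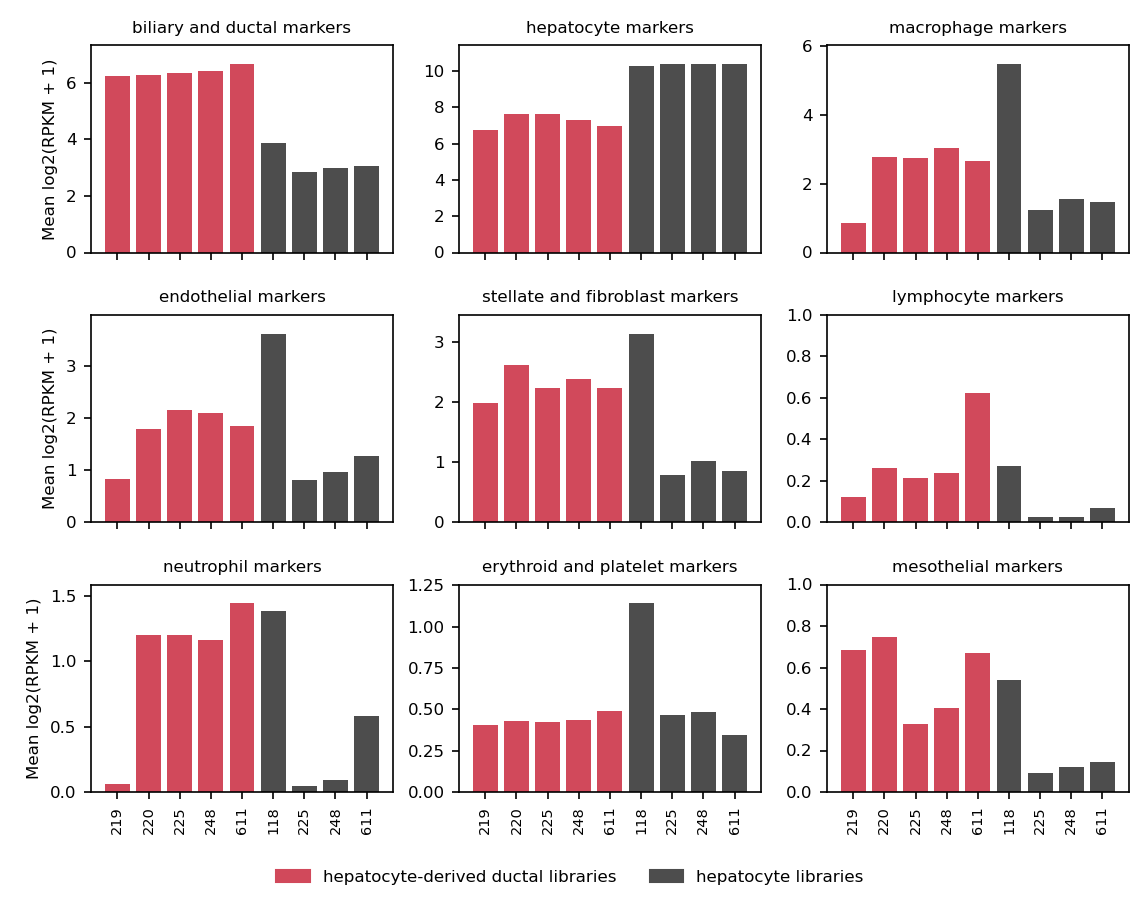
The mean log2(RPKM + 1) of each marker list is drawn as a bar for every library, named by its number, with hepatocyte-derived ductal libraries in red and hepatocyte libraries in grey. Each panel has its own vertical axis, starting at 0. Biliary and hepatocyte markers separate the groups, and hepatocyte library 118 lies above the other hepatocytes for macrophage (5.48), endothelial (3.63) and stellate markers (3.14), while ductal library 219 lies below the other ductal libraries for macrophage (0.863) and endothelial markers (0.831).

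Within a group, a few genes varied widely between libraries, some of them far more than the groups differed. Dbp, a transcription factor of the circadian output, stood at 52.1, 127, 22.2, 20.4 and 3.6 RPKM in the ductal libraries and 109, 7.9, 9.04 and 0.84 RPKM in hepatocytes, and was not called (1.24 ± 1.11 (SE)). Ductal library 220 and hepatocyte library 118 were the highest of their populations and the 611 libraries the lowest. The log2 difference was 2.32 without hepatocyte library 118, where it was called (adjusted p = 0.0429), 0.35 without hepatocyte library 611 and 1.88 without ductal library 611. With library weights Dbp was called as well (1.59, adjusted p = 0.0327). Eif2s3y and Ddx3y, genes of the Y chromosome, were at 0.09 and 0.05 RPKM in ductal library 611 and at 0.14 and 0.05 in hepatocyte library 611, and at 19.8 RPKM or more in the other 7 compared libraries. Neither was called (0.26 ± 1.52 (SE) and 0.37 ± 1.27 (SE)), and without a 611 library of one population the differences ran from -1.1 to 1.36 for Eif2s3y and from -0.76 to 1.31 for Ddx3y. Cyp2a5, a P450 that hydroxylates coumarin, stood at 9.47, 61.5, 33.3, 22.1 and 3.37 RPKM in the ductal libraries and 2495, 906, 875 and 264 RPKM in hepatocytes. It varied by over 9 times within each group, with 611 lowest in both, yet the groups did not overlap and it fell by 5.51 on the log2 scale (adjusted p = 1.36e-05).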

How the data were processed

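Total RNA of sorted cells, extracted in Trizol, was prepared with the TruSeq RNA kit, version 2, which does not mark strand, so overlapping antisense genes cannot be told apart. The authors deposited RPKM values per transcript (26005 rows). Alignment to mm9 and use of Bowtie 0.12.7 and CASAVA are per the submitters' processing notes, and the counting program is not given in the sources used here. Of 14 columns, 12 matched a sample title, and the 2 numbered 220, where titles carry 120, were matched to their group alone. The design text gives 3 hepatocyte samples and the labels 4. Depth was estimated from the steps between low values, and no count test was made.

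Each symbol was represented by its row of highest mean. The 12638 of 20377 symbols that reached 1 RPKM in 4 or more libraries entered limma 3.58.1 (R 4.3.3) on the scale log2(RPKM + 1), with a mean-variance trend, in all 14 libraries and 3 groups, two-sided. A fold on this scale understates changes of low genes. A mean ± SE is limma's. The fit was also run on simulated data in which few symbols changed, so that run cannot check the scaling of these libraries. Named genes follow a rule: the 10 largest and most abundant changes in each direction, on and off genes, abundant genes within 2-fold, up to 5 called members per list with exceptions, variable genes and markers. The members, the 40 gene lists and this rule were chosen with earlier results of these data known, so list counts are descriptions without a test. No 2 libraries shared over 0.437% identical values. There were 20 alternatives, whose effects are given at the end. Same-numbered ductal and hepatocyte libraries deviated together weakly, with correlations of 0.021 to 0.193 (mean 0.114) in 3 pairs. Differently numbered ones had -0.357 to 0.437 (mean -0.023) in 17 pairs. The Y-linked Eif2s3y, at 0.09, 0.14 and 0.1 RPKM in the ductal, hepatocyte and cholangiocyte-derived libraries 611, went with the number. The labels do not say what a number marks, so the numbers were not used as pairs in the main fit. A fit with them as a block is given at the end.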

Additional observations from a re-analysis of the deposited data

Results flagged for a closer look

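Of 80 sets of library means examined (the mean log2(RPKM + 1) of a gene list in 1 group), 13 had a library whose gap to its nearest neighbour was large for the range of its group. Chance flags about 1 in 20. Hepatocyte library 118 lay above the other hepatocytes for ribosomal proteins (4.44 against 3.80 to 3.87), the respiratory chain (7.24 against 6.63 to 6.66), the citric acid cycle (6.31 against 6.00 to 6.02), macrophage markers (5.48 against 1.24 to 1.55), endothelial markers (3.63 against 0.813 to 1.28), stellate and fibroblast markers (3.14 against 0.784 to 1.02) and mesothelial markers (0.538 against 0.091 to 0.145). It lay slightly below them for hepatocyte markers (10.3 against 10.4). Hepatocyte-derived ductal library 219 lay below the other ductal libraries for macrophage (0.863 against 2.67 to 3.03), endothelial (0.831 against 1.79 to 2.16) and neutrophil markers (0.0606 against 1.16 to 1.44). Ductal library 611 lay above the others for RNA splicing (5.55 against 5.43 to 5.46) and lymphocyte markers (0.622 against 0.122 to 0.26). The causes were not tested.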

How the results depend on the processing

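Scaling and hepatocyte library 118 moved counts. Of symbols higher and lower, 4735 and 4590 were called after rescaling by median ratios and 4596 and 4136 after quantile normalization, and at least 2-fold 1900 and 2010, and 1569 and 1462, in place of 4302 and 941. A pseudocount of 5 left 2096 higher at least 2-fold. Switched-on symbols numbered 101 rescaled and 339 without hepatocyte library 118, and switched-off symbols 29 rescaled. Leaving out each library in turn gave 8152 to 8688 higher and 1779 to 1933 lower, and at least 2-fold 4237 to 4457 and 916 to 970. With the replicate block the counts were 8410 and 1945, and at least 2-fold 4247 and 962, and among the same-numbered ductal and hepatocyte pairs the deviations correlated at 0.021 to 0.193, beside 0.212 to 0.797 for same-numbered ductal and cholangiocyte-derived libraries and 0.133 to 0.512 for hepatocyte and cholangiocyte-derived ones. The block brought calls of higher for S100a8 (2.79, adjusted p = 0.000133), S100a9 (2.88, 0.000145), Lyz2 (2.16, 0.0287), Aqp1 (1.66, 0.0368) and Dbp (1.15, 0.0159), ended those of Akt2 (0.0514) and Gpt2 (0.07), and changed no other call of a named gene. The other alternatives stayed within 1.5 times of each count. Of 4848 values of 243 named genes, 4721 kept direction and call, 44 changed sign without a call in either fit (12 genes), and 21 changed sign with a call in at least 1. Rescaled, these last were Cp -0.263, Eef1a1 -0.456, Eef2 -0.388, Gpt2 -0.308, H2-D1 -0.188, H2-K1 -0.463, Hnrnpa2b1 -0.351, Idh2 -0.292, Krt18 -0.331, Krt8 -0.631, Ly6e -0.608, Rplp0 -0.168, Slc10a2 -0.693 and Tmem176b -0.217. Under quantile normalization they were Ahsg 0.298, Fth1 0.19, Gc 0.043 and S100a10 0.305. Emr1 reached 0.982 and Pecam1 1.07 without libraries 118 and 219 together, and Pecam1 1.15 with library weights. Median log2 differences of lists changed sign, with a size of at least 0.1 on both sides, for ribosomal proteins (-0.28), translation factors (-0.36) and ubiquitous glycolysis (-0.13) rescaled, for erythroid and platelet markers under quantile normalization (-0.28) and with a filter of 5 RPKM (-1.13), and for macrophage markers rescaled (-0.45), quantile-normalized (-0.66), at a pseudocount of 5 (-0.16), and over the libraries left out in turn (leave-one-out range -0.48 to 1.17). The medians of the proteasome, serine and nucleotide, endothelial and stellate lists also crossed 0 under some alternatives, from or to a smaller size. The cause was not tested. Depth limits values near 1 RPKM, the 4 hepatocyte libraries limit every hepatocyte mean, and library 118 weighs on all of them.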

Other observations

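Transcripts that are known to differ between male and female mouse liver varied with library 611, as did the Y-linked genes above. The genes in these 2 paragraphs were chosen after their values were seen. In hepatocytes A1bg stood at 0.09, 0.06, 0.17 and 66.8 RPKM and Cyp2b9 at 0.35, 0.15, 0.38 and 82.4 RPKM, in the order of libraries 118, 225, 248 and 611, so that among these hepatocyte libraries they passed 1 RPKM in 611 alone. Ductal library 611 held 0.45 and 0.84 RPKM. Transcripts typical of male liver ran the other way, with Cyp4a12a at 45.3, 19.9, 9.94 and 0.56 RPKM, Cyp2d9 at 662, 386, 359.8 and 52.3 RPKM and the urinary protein Mup20 at 8657, 4004, 2752 and 864 RPKM in the same hepatocytes. Mup20 was lowest in library 611 among ductal libraries too, at 83.5, 254, 186, 106 and 30.5 RPKM. The sources used here give no sex.

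Several circadian genes varied between the libraries of both populations. Dbp is given above. Tef, a relative of Dbp, stood at 47.1, 78.8, 33.7, 30.8 and 12.4 RPKM in ductal libraries and 50.3, 16.1, 17.1 and 5.91 RPKM in hepatocytes. Arntl, the clock activator whose phase is opposite to that of Dbp, stood at 6.62, 1.02, 9.83, 10.9 and 19.9 RPKM and 0.54, 11.7, 10.5 and 19.5 RPKM, highest in 611 and lowest in ductal 220 and hepatocyte 118. Npas2 followed Arntl, at 1.88, 0.64, 3.08, 3.22 and 6.91 and 0.03, 1.43, 1.4 and 4.66 RPKM. Per2 stood at 9.65, 25.9, 8.24, 8.79 and 2.73 RPKM in ductal libraries and 5.66, 1.77, 1.81 and 1.13 RPKM in hepatocytes, highest in ductal 220 and hepatocyte 118 and lowest in 611. Per1, at 32.7, 31.5, 41.3, 35.5 and 8.73 and 7.62, 8.73, 8.18 and 1.04 RPKM, and Nr1d1, at 51.9, 54.9, 69.6, 61.3 and 27 and 21.4, 31.7, 33.9 and 16.1 RPKM, were also lowest in 611 but were not highest in ductal 220 or hepatocyte 118. The sources used here give no time of day.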
